A study of Mus musculus with 2 samples.

Results

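The genes Srsf3, Clk1, Hnrnpa1, Hnrnpa3, Hnrnpdl, Hnrnph2 and Pcbp2, which encode regulators of splicing, were examined for where RNA recovered with BUD31 mapped on them. They were chosen by a measured value, the presence of at least 1 peak under their symbol in the authors' list, so that each has a peak is not a finding. They are 7 of 3258 genes named in that list, and they hold 15 of its 16331 peaks. A further 17 splicing regulators, among those compared below, also had a peak and are not among the 7.

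The list comes from RNA immunoprecipitation followed by sequencing (RIP-seq), in which RNA is recovered with an antibody against a protein of interest, here the spliceosome component BUD31. The material was testicular germ cells of C57BL/6J mice at postnatal day 14, set free by enzymatic digestion. One library was made with the anti-BUD31 antibody and 1 from input RNA (10% of the total). No genetic change or drug is named in the labels, and whether animals were pooled was not stated in the sources used here.

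SR proteins and heterogeneous nuclear ribonucleoproteins (hnRNPs) bind pre-mRNA and steer which exons are kept. SR proteins mostly promote the use of nearby exons, many hnRNPs oppose it, and kinases such as CLK1 set the activity of SR proteins by phosphorylating them. Many of these genes limit their own output through unproductive splicing, in which an exon with an early stop codon, or an intron in the 3′ UTR, sends the transcript to nonsense-mediated decay. For that reason the class of each peak, exon, 3′ UTR or intron, is given gene by gene.

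Peaks carry a position and an annotation class but no height, read count, score or strand. Depth is therefore unknown, a gene can only be described by where its peaks lie and how much of it they cover, and since each group is a single library no test was possible and no p-value is given. Peak borders fall on bins of 200 bp on chromosomes 2, 5, 15 and 17, 205 bp on chromosome 1 and 230 bp on the X chromosome. All coordinates are mm10, 1-based, and gene extents are those of the RefSeq table for GRCm38.p6. Of the germ cell markers on chromosomes with peaks, 4 of 5 had a peak (Mael, Boll, Sycp3 and Tex11, but not Dazl), against 3 of 14 markers of somatic testis cells (Kitl, Wt1 and Myh11). Over all coding genes on chromosomes with peaks the share was 18.8%. The germ cell markers with a peak lie on chromosomes 1, 10 and X, where 39.9%, 30.4% and 48.6% of coding genes had one. Of the somatic markers, Sox9, Pecam1, Cyp17a1 and Acta2 lie on chromosomes 11 and 19, with 0.0622% and 0%. The 2 counts thus differ in chromosome coverage and do not measure how pure the cells were. Somatic cells' part in the peaks described here was not tested.

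Of the 15 peaks, 9 were classed as intron, 3 as 3′ UTR, 2 as exon and 1 as intergenic. Peaks in exons or UTRs lay on 4 of the 7 genes, Srsf3, Hnrnpa1, Hnrnpa3 and Hnrnpdl, and on 39.8% of the 2799 coding genes with a peak. Both Srsf3 and Pcbp2 carried several intron peaks, and Hnrnph2 carried a single one as long as the gene. No peak overlapped Clk1 itself.

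**Figure D1:**
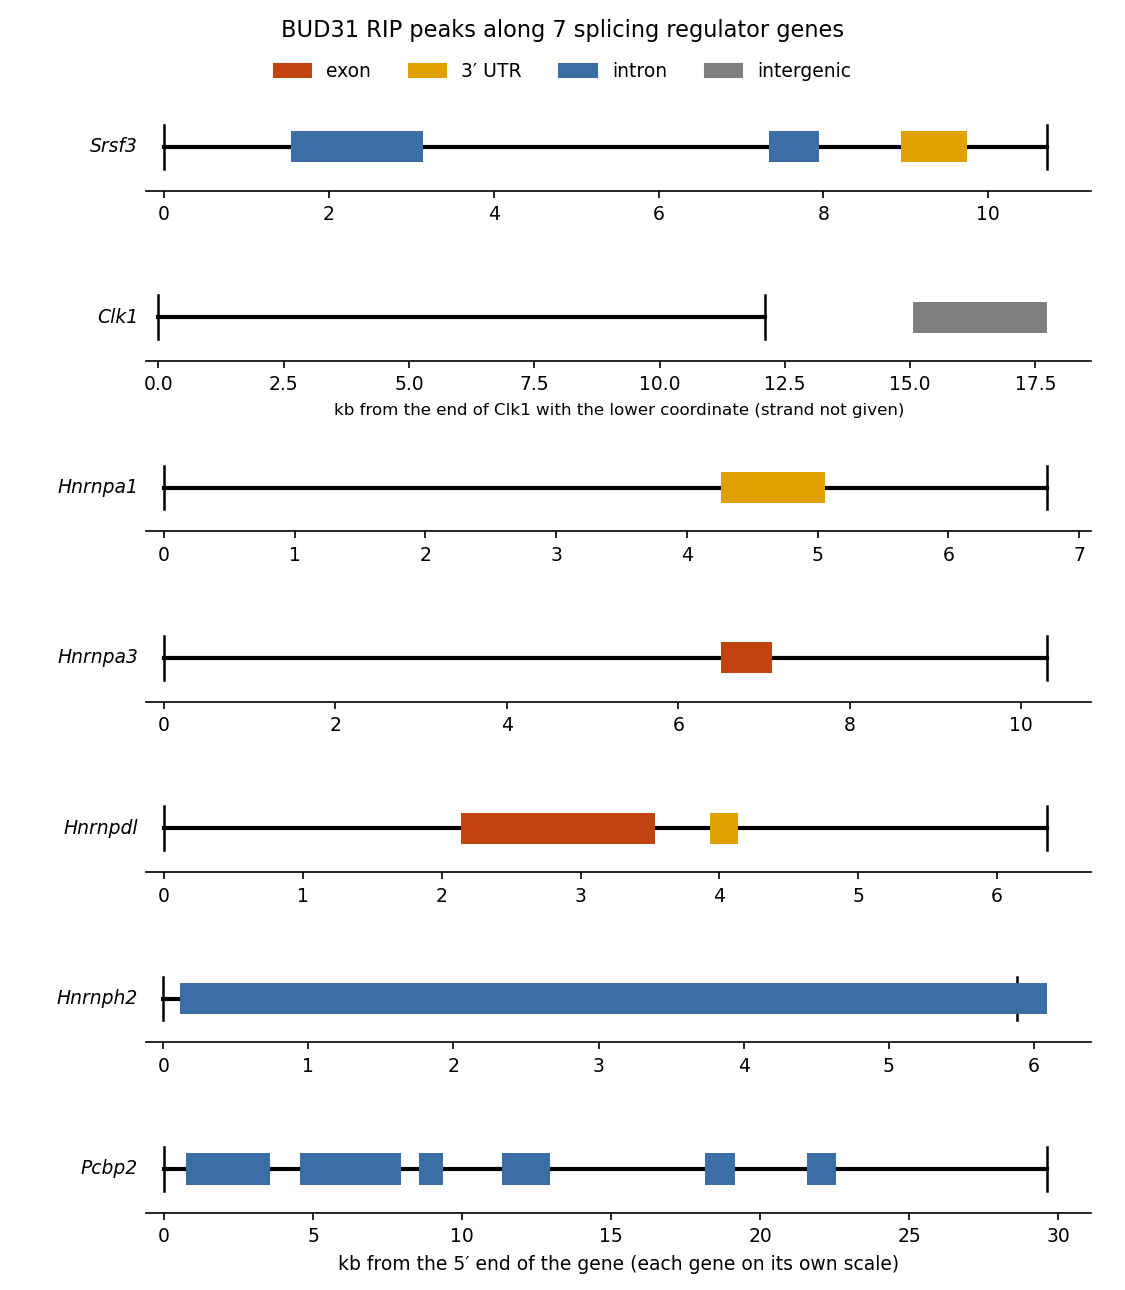
Peaks (coloured boxes, by annotation class) along each of the 7 genes (black line with end marks), in kb from the 5′ end and each on its own scale; Clk1, whose strand was not given, is drawn from its lower coordinate. The Hnrnph2 peak spans 98.1% of the gene, and the Clk1 peak lies 2962 bp beyond it.

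Among the SR proteins, Srsf3 (gene 20383, chromosome 17, 29032660 to 29043372, plus strand) encodes a small factor that promotes inclusion of an exon with a premature stop codon in its own transcript. It had 3 peaks. The first, of 1600 bp at 29034201 to 29035800, was classed as intron and began 1.54 kb from the 5′ end. Another intron peak of 600 bp lay at 29040001 to 29040600, at 68.5% to 74.1% of the gene's extent. The last, of 800 bp at 29041601 to 29042400, was classed as 3′ UTR and ended 972 bp before the 3′ end. Together they covered 3000 bp, or 28% of the gene, with gaps of 4200 bp and then 1000 bp between them.

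The 2 intron peaks of Srsf3 were assigned to a noncoding transcript and the 3′ UTR peak to the coding one. RefSeq lists 2 Srsf3 transcripts, 1 coding and 1 noncoding. The assignment is a label of the authors' annotation step, and with no strand, no read and no exon positions used here it does not show which transcript the RNA came from. Chromosome 17 had few peaks, over 32 of its 1059 coding genes, and 5 of the 34 genes named there had more of them than Srsf3.

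The kinase gene Clk1 (gene 12747, chromosome 1, 58411988 to 58424088) is known for transcripts that are held in the nucleus with introns unspliced. Its 1 peak, of 2665 bp at 58427051 to 58429715, was classed as intergenic and covered 0 bp of the gene. The peak lay 2962 bp from Clk1 and 1277 bp from Ppil3, a cyclophilin gene, which runs from 58430993 to 58445591 on the minus strand. Ppil3 is thus the nearer gene, and the peak lies past its 3′ end. Clk1 counts as a gene with a peak only by the authors' naming.

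Hnrnpa1 (gene 15382, chromosome 15, 103239943 to 103246698, plus strand) encodes an abundant hnRNP that represses splice sites, including around an alternative exon of its own pre-mRNA. It had 1 peak of 800 bp, at 103244201 to 103245000, classed as 3′ UTR. The peak covered 11.8% of the gene and lay at 63% to 74.9% of its extent, so 1698 bp of annotated gene followed it. Neither the first 4.26 kb nor the last stretch carried a peak. It was also the last peak of the chromosome in the list.

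For Hnrnpa3 (gene 229279, chromosome 2, 75659105 to 75669407, plus strand), a relative of Hnrnpa1 in the A/B family, the 1 peak was classed as exon. It was 600 bp wide, or 3 bins, at 75665601 to 75666200, and covered 5.82% of the gene. It lay at 63% to 68.9% of the extent and was assigned to a noncoding transcript, 1 of 5 that RefSeq lists for the gene, of which 4 are coding. The peaks of Hnrnpa1 and Hnrnpa3 thus began at the same fraction of their genes, although one was named 3′ UTR and the other exon. Both genes have processed pseudogenes elsewhere in the genome, and how reads with several matches were counted was not stated, so these calls are uncertain.

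Hnrnpdl (gene 50926, chromosome 5, 100033577 to 100039936, minus strand) encodes an hnRNP related to hnRNP D that regulates itself through alternative exons in its 3′ UTR. It was the only one of the 7 genes with both an exon and a 3′ UTR peak and none in introns. The exon peak, of 1400 bp at 100036401 to 100037800, lay 2.14 to 3.54 kb from the 5′ end. The 3′ UTR peak was a single bin of 200 bp at 100035801 to 100036000, separated from it by 400 bp. Together they covered 1600 bp (25.2%). That gap is 2 bins. Hnrnpd, the closest relative of Hnrnpdl and on the same chromosome, had no peak; it was singled out after its value was seen.

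The X-linked gene Hnrnph2 (gene 56258, chromosome X, 134601179 to 134607060, plus strand), which encodes a protein that binds runs of G, had 1 peak of 5980 bp, or 26 bins, at 134601291 to 134607270. The peak began 112 bp inside the gene and ended 210 bp beyond it. Both distances are below the bin of 230 bp, so the peak matches the whole gene within the resolution of the list. It covered 98.1% of the gene, and of 2799 coding genes with a peak only 23 were covered more completely. The peak was classed as intron although it covers nearly the whole extent, so the class does not show which part of the transcript was recovered.

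Pcbp2 (gene 18521, chromosome 15, 102470450 to 102500068, plus strand), a KH-domain protein that binds runs of C and controls mRNA stability and translation as well as splicing, had 6 peaks, all classed as intron. The widest were the first and the second, of 2800 bp at 102471201 to 102474000 and of 3400 bp at 102475001 to 102478400. The next, at 102479001 to 102479800, was the narrowest at 800 bp. Another, of 1600 bp, lay at 102481801 to 102483400. The last 2, of 1000 bp each, began 18.15 and 21.55 kb from the 5′ end.

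The Pcbp2 peaks covered 10600 bp, or 35.8% of the gene, which held 6 of the 84 peaks on chromosome 15. Only 3 of the 34 genes named there had more. A further peak, of 1200 bp at 102498401 to 102499600, lies inside the extent of Pcbp2 but was named for the 3′ UTR of Map3k12, a kinase gene on the opposite strand that shares 2422 bp with the end of Pcbp2. The list gives no strand, so the 2 genes cannot be told apart there. With that peak the covered share of Pcbp2 was 39.8%.

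No listed peak of these genes covered the annotated start of its gene. The Hnrnph2 peak began 112 bp from it, less than the bin of 230 bp, so there the start cannot be told from the peak border. Of the 6 genes whose strand was given, none had a peak over the first base of the gene or in the promoter window (250 bases before to 50 after the start), and 1, Hnrnph2, had one over the last base. With 6 genes the Wilson 95% interval for 0 runs up to 39%. Among all 2229 coding genes with a peak and a given strand, the first base was under a peak in 9.2% (8.07% to 10.5%). A peak reached the promoter window in 14.1% (12.7% to 15.6%) and the last base in 15.8% (14.4% to 17.4%). The counts for the 6 genes are thus within what those shares allow. All such intervals cover counting error over genes or peaks, and neither are replicates.

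The running numbers of the authors' peaks had no gap within these genes. In the 8 pairs of neighbouring peaks in Srsf3, Hnrnpdl and Pcbp2, 0 skipped a number, whereas 38.5% of 13073 such pairs did over all genes and 9.45% of 328 did on chromosomes 2, 15 and 17. On chromosome 15 all 84 numbers from the first to the last peak are in the list, so the 5 pairs of Pcbp2 could not skip one. Thus no numbered peak is missing between the listed peaks of Pcbp2 or of Srsf3.

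Peaks in exons or UTRs made up 5 of the 15 (33.3%, 15.2% to 58.3%). For all coding genes the share was 10.0% of 15205 peaks (9.53% to 10.5%). On chromosomes 2, 15 and 17, where 4 of the 7 genes lie, it was 23.5% of 460 (19.8% to 27.6%), and there these 4 genes had 3 of 11 (27.3%, 9.75% to 56.6%). The genes were picked with these classes in view, and their share on those chromosomes was close to that of other genes there. Peaks of related splicing regulators were in exons or UTRs in 8 of 76 (10.5%). Median peak width was 1000 bp in the 7 genes and 1400 bp over all coding genes. On chromosomes 2, 15 and 17 the order turned, with 1000 bp in the 4 genes and 600 bp over all coding genes there.

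**Figure D2:**
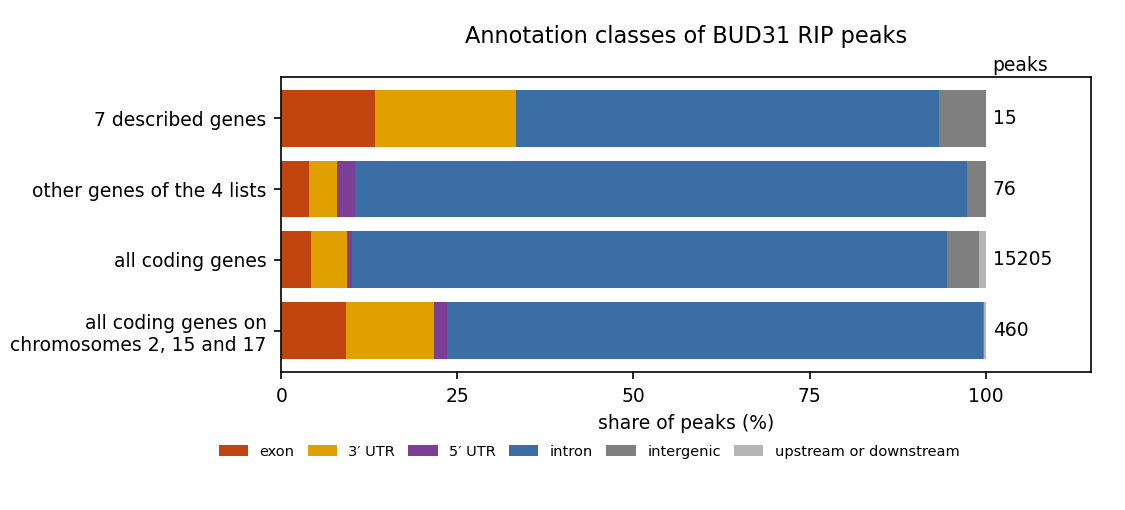
Share of peaks (x axis, in percent) in each annotation class for the 7 genes, the other splicing regulators of the 4 lists, all coding genes and the coding genes on chromosomes 2, 15 and 17, with the number of peaks at the right. The share in exons and UTRs is 33.3%, 10.5%, 10.0% and 23.5% from top to bottom. The 7 genes were picked with these classes in view, and those of them on chromosomes 2, 15 and 17 had 27.3%.

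The covered share ran from 0% in Clk1 to 98.1% in Hnrnph2, with a median of 25.2% over the 7 genes. The median over all coding genes with a peak was 14.0% (interquartile range 4.07% to 40.3%), and over the 978 of them with an extent in the range of the 7 genes (5882 to 29619 bp) it was 19.3%. Against the quartiles of all coding genes with a peak, Hnrnph2 lay above, Clk1 below and the other 5 genes between them. Within the range of extents, 978 of 5853 coding genes (16.7%) had a peak.

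To place the 7 genes among their relatives, 70 genes in 4 lists were examined: SR proteins, SR-related proteins, kinases of SR proteins and hnRNPs. The lists were drawn up with earlier results on some of these genes known. Of the 70 genes, 21 lie on chromosomes for which the list has no peak, and these are left out. Of the other 49, 24 had a peak (49.0%, 35.6% to 62.5%), against 18.8% of the 14867 coding genes on the same chromosomes. Without the 7 genes, which were chosen for their peaks, the count was 17 of 42 (40.5%, 27.0% to 55.5%). By family, and still without the 7 genes, a peak was found in 2 of 9 SR proteins, 7 of 15 SR-related proteins, 4 of 5 kinases and 4 of 13 hnRNPs (30.8%, 12.7% to 57.6%). With the 7 genes these counts were 3 of 10, 7 of 15, 5 of 6 and 9 of 18. An exon or UTR peak was found in 6 of the 42 genes without the 7 (14.3%, 6.72% to 27.8%) and in 10 of 49 with them (20.4%), against 7.49% of the same coding genes. Among genes that had any peak these shares were 6 of 17 (35.3%, 17.3% to 58.7%) and 10 of 24 (41.7%, 24.5% to 61.2%), and the 39.8% of coding genes with a peak lies within both intervals. Expression levels are unknown, so the part of transcript abundance in these shares was not tested.

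The chromosomes on which these genes had peaks were uneven. On chromosomes 2, 15 and 17 a peak was found in 12 of 15 list genes (80.0%, 54.8% to 93.0%), against 4.56% of 3617 coding genes. This grouping of chromosomes was made after seeing the data. Without Srsf3, Hnrnpa1, Hnrnpa3 and Pcbp2 it was 8 of 11 (72.7%, 43.4% to 90.3%). By chromosome, with those genes included, 4 of 4 had a peak on chromosome 2, against 5.78% of all coding genes there. It was 2 of 2 on chromosome 15 (3.87%) and 6 of 9 on chromosome 17 (3.02%). The 2 on chromosome 15 are Hnrnpa1 and Pcbp2, both chosen for their peaks, so that count was fixed beforehand. On the better covered chromosomes, with a peak in 10% or more of their coding genes, the list genes had one in 12 of 21 (57.1%, 36.5% to 75.5%), against 35.7% of 7352 coding genes. Among the 12 are Clk1, Hnrnpdl and Hnrnph2, chosen because they had a peak, which raises this share. The count without them was not made, so 57.1% against 35.7% is not read as an excess. On chromosomes 4, 11 and 19 none of 13 list genes had a peak, among them Srsf1, Srsf2 and Hnrnph1, where 1 of 3642 coding genes did.

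**Figure D3:**
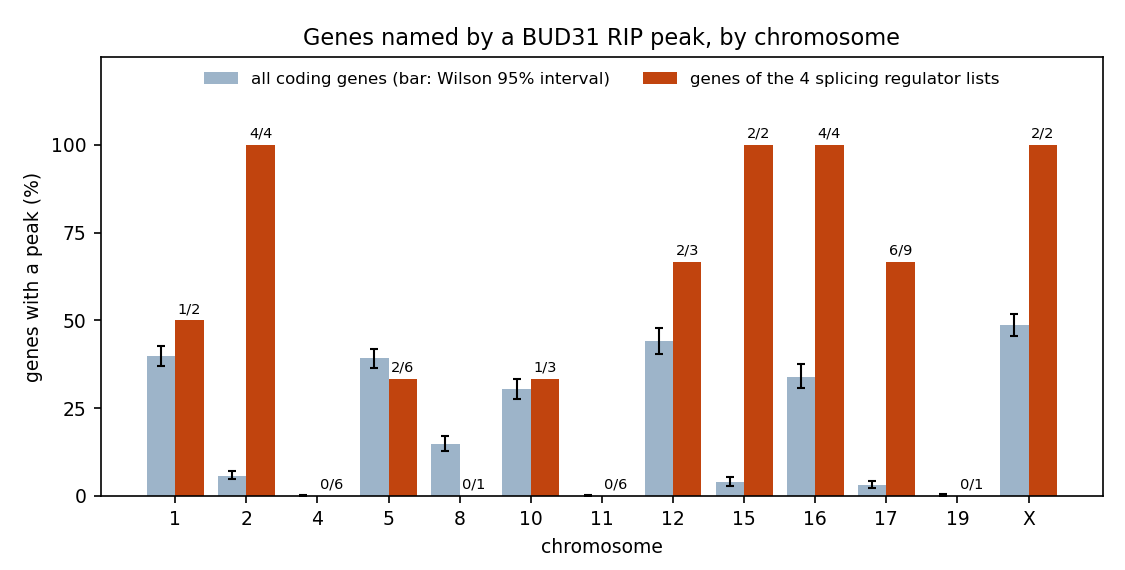
Percent of genes with a peak on each chromosome that holds a gene of the 4 lists, for all coding genes (blue, with Wilson 95% intervals) and for the list genes (red, with their counts above the bars). On chromosomes 2, 15 and 17 the list genes stand at 4 of 4, 2 of 2 and 6 of 9, against 5.78%, 3.87% and 3.02% of coding genes. The red bars include the described genes, which were chosen for their peaks. Both list genes on chromosome 15 are among them.

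SR proteins with a peak were Srsf3, Srsf6 and Srsf7, all on chromosomes 2 and 17. Srsf6, which like Srsf3 controls an exon with a premature stop in its own transcript, had 1 intron, 1 exon and 1 3′ UTR peak over 37.8% of its 5614 bp. Srsf7 had 1 intron peak over 8.23% of the gene, assigned to a noncoding transcript. None of the 7 other SR proteins on chromosomes with peaks had one, and 5 of those lie on chromosomes 4 and 11.

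Of the SR-related genes, Rbm39, a U2AF-like factor, had the most peaks. Its 11 covered 15.2% of the gene, 9 in introns, 1 in an exon and 1 in a 5′ UTR. Rbm25 had 8 peaks over 44.7%, of which 2 were classed as intergenic. Tra2b, a splicing activator with a poison exon of its own, had 2 intron peaks over 10.3%, and Srrm2, a scaffold of nuclear speckles, had 1 peak in the 3′ UTR over 1.75%.

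Among the kinases on chromosomes with peaks, Clk4, on chromosome 11, was the only gene without one. Clk2, Clk3 and Prpf4b lie on chromosomes for which the list has no peak. Srpk2, an SR protein kinase active in cytoplasm and nucleus, had 13 peaks over 19.6% of 181287 bp, 12 of them in introns and 1 in a 5′ UTR. Srpk1, a cytoplasmic SR protein kinase, had 1 of 400 bp in its 3′ UTR, 1.15% of the gene, and Dyrk1a, a kinase of speckle proteins, had 2 intron peaks over 1.43%. When only peaks overlapping a gene were counted, Clk1 dropped out.

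Of the hnRNP genes outside the 7, Raly, a relative of hnRNP C, led with 15 intron peaks over 7.49% of its 80091 bp. Pcbp3, a relative of Pcbp2, had 10 over 8.69% of 200264 bp, against 6 over 35.8% of 29619 bp in Pcbp2. Hnrnpm, a repressor of splicing, had 1 exon and 3 intron peaks over 7.14%.

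**Figure D4:**
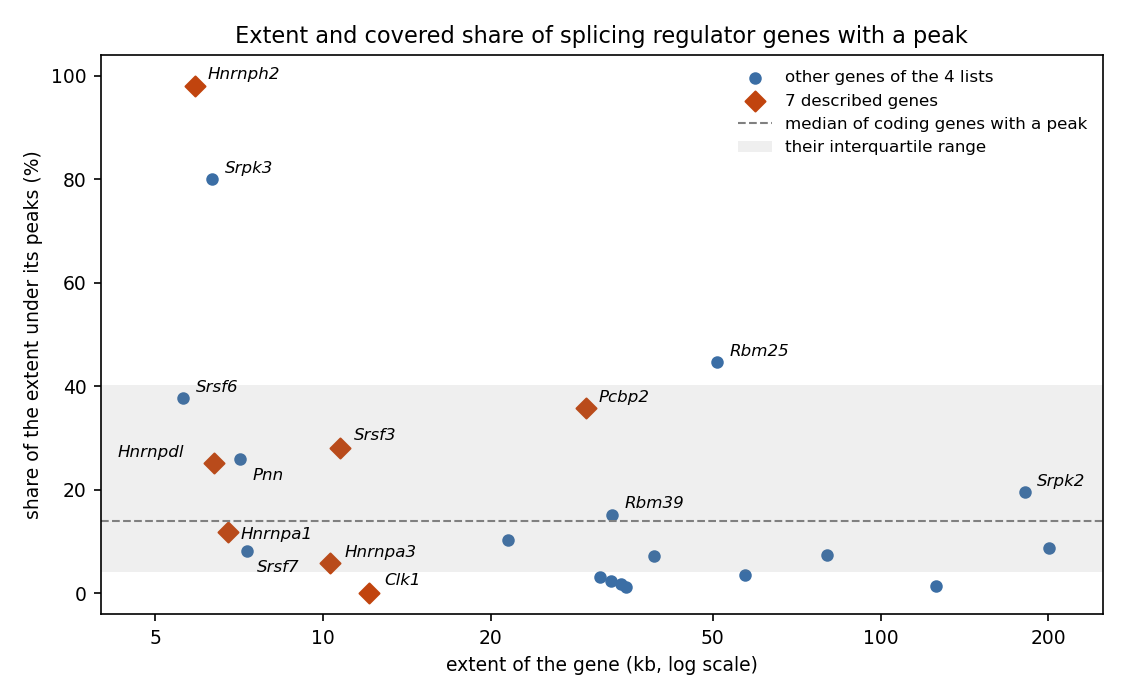
Extent of each splicing regulator gene with a peak (x axis, kb, log scale) against the share of it under its peaks (y axis, percent), for the 7 described genes (red) and the other 17 (blue); the dashed line and grey band are the median and interquartile range of the 2799 coding genes with a peak. Hnrnph2 at 98.1% and Srpk3 at 80.1% stand highest, and both are short and X-linked.

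Assignment to noncoding transcripts was seen in 4 of the 24 list genes with a peak (16.7%, 6.68% to 35.9%), against 10.5% of the 2799 coding genes with one. The 4 were Srsf3, Srsf7, Hnrnpa3 and Hnrnpll, the last of which was named after its value was seen. Those 4 genes lie on chromosomes 2 and 17. By peaks it was 3 of the 15 in the 7 genes (20%, 7.05% to 45.2%), 2 of 76 in the other list genes and 5.47% of 15205 over all coding genes. On chromosomes 2, 15 and 17 it was 3 of 11 in the described genes (27.3%, 9.75% to 56.6%). Over all coding genes there it was 8.48% of 460 (6.26% to 11.4%). Of the 3 peaks in the described genes, 2 lie in Srsf3 and 1 in Hnrnpa3. Peaks of the same gene are not independent, which the intervals take no account of. The 7 genes were not chosen independently of their peaks.

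With 1 library there is no pattern across samples, so likeness was taken as the same set of peak classes and the nearest covered share among the list genes. Hnrnph2 was closest to the X-linked kinase gene Srpk3, with 1 intron peak each over 98.1% and 80.1%. Pcbp2 was closest to Pnn, which encodes a protein of the exon junction, although Pnn had 1 peak over 26% of the gene. Hnrnpa1 was closest to Srrm2, each with 1 peak in the 3′ UTR, over 11.8% and 1.75%. Only 2 other list genes shared its set of classes, against 11 for Hnrnph2 and 11 for Pcbp2. Srsf3, Clk1, Hnrnpa3 and Hnrnpdl shared their set of classes with no other list gene.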

How the data were processed

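Per the submitters' processing notes the genome build was mm10 and the tool named is TopHat2 2.0.13. How peaks were called, against which threshold and release, and how the input and strand entered is not stated in the sources used here. The deposited file is 1 annotated peak list without counts, folds or scores, and per the file headers its columns are peak number, position, class, transcript, gene and transcript type. The groups, 1 antibody and 1 input library, come from the sample titles.

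Genes were matched by gene number to the RefSeq table of GRCm38.p6, and strand was taken from the RefSeq promoter table, which does not give it for Clk1. Covered length is the union of a gene's peaks within its extent. Planned work on exons was not run, since no exon positions were used here. The members and lists were chosen with earlier results of these data known. The genes named were the 7 members, list genes with an exon or UTR peak, the 3 per list with the most peaks, missing genes where 4 or fewer, overlapping genes and the closest list gene. Alternatives were assignment by overlap of at least 1 bp, at least 50% of a peak inside the gene, peaks wider than 2 bins, in-gene or exon and UTR classes, and subsets of chromosomes or genes. Interval functions were tested on simulated data. Intervals are Wilson 95%. Python 3.11.15, numpy 2.4.6, pandas 2.3.3, scipy 1.17.1 and matplotlib 3.10.9 were used.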

Additional observations from a re-analysis of the deposited data

How the results depend on the processing

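The 15 peaks of the 7 genes stayed at 14 or 15 in all 4 settings tried. Counting overlaps instead of names removed the Clk1 peak and added the Map3k12 peak to Pcbp2, with 23570 instead of 22370 covered bases over the 7 genes. Asking for more than 2 bins took the 200 bp peak from Hnrnpdl. The share of list genes with a peak was 46.9% under assignment by overlap, in-gene classes and wider peaks. For wider peaks the share of coding genes was 17.3%. On well covered chromosomes the share of list genes was 57.1%, against 35.7% of coding genes. Each of these values counts genes among the 7, chosen for their peaks, which raises it. That the values stayed close is thus partly fixed by that choice. The share of list genes moved to 20.4% for exon and UTR classes only, by construction, where 7.49% of coding genes were left. On chromosomes 2, 15 and 17, an alternative chosen after seeing the data, it moved to 80.0%; the cause was not tested. Without the 7 genes, an alternative also chosen later, it was 40.5% in the main setting. Assignment by overlap, in-gene classes, wider peaks and well covered chromosomes were not rerun without them. No paired analysis was possible because the results come from no test and each group has 1 library. Without depth, peaks that were absent cannot be told apart from RNA too scarce to give one.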

Other observations

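The genes on the lower-coordinate side of Hnrnph2 on the X chromosome also had peaks; they were chosen after their values were seen. Rpl36a, a ribosomal protein gene at 134585654 to 134588062, had 1 exon and 1 intron peak over 66.7% of its extent. Gla, the gene of the lysosomal enzyme alpha-galactosidase A, lies between that gene and Hnrnph2 at 134588169 to 134601005 on the minus strand, so that its 5′ end and that of Hnrnph2 lie 173 bp apart. It had 1 peak in the 3′ UTR and 2 in introns over 32.3%. Peaks there were 460 to 1840 bp wide, against 5980 bp in Hnrnph2.

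Splicing regulators outside the lists were also noted after their values were seen. Sfswap, whose fruit fly counterpart controls the splicing of its own pre-mRNA, had 16 peaks on chromosome 5, all in introns, over 24.5% of 70154 bp. Zrsr2, a factor of the minor spliceosome, had 10 on the X chromosome over 68.8% of 26073 bp, 8 of them in introns and 1 in each UTR. Puf60, a U2AF-like factor, had 1 intron peak over 4.86% of its extent on chromosome 15. Khsrp, a KH-domain protein, had 1 peak in the 3′ UTR over 11.5% on chromosome 17.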
